A study of Mus musculus with 20 samples.

Results

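Adipoq, Cfd, Lipe, Cidec, Plin1, Plin4 and Pnpla2 are genes that mature fat cells use to store triglyceride, to release it again and to signal to other tissues. All probes whose platform annotation names one of these 7 genes were taken from the table of 25697 probes. This gave 7 probes for 6 of the 16110 genes with a probe, with 2 probes for Lipe and 1 for each of the others. No probe of the annotation used here carried the symbol Cfd, which encodes the complement protease adipsin (factor D), and this gene was not analysed here.

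Fat cells hold triglyceride in lipid droplets coated by proteins. Cidec (also called Fsp27) lets droplets fuse and grow, and the perilipins Plin1 and Plin4 sit on the droplet surface, where Plin1 restrains lipolysis until hormones release the brake. Pnpla2 (adipose triglyceride lipase) and Lipe (hormone-sensitive lipase) then remove the fatty acids in turn. Adipoq encodes adiponectin, a hormone secreted by fat cells. In lung, fat cells are not a resident type of the alveoli, but fat lies beside the large airways and vessels and in the mediastinum next to the heart, and Pnpla2 and Lipe are also used outside fat.

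Whole lung was taken from males of the inbred AKR/J strain, aged 6 to 8 weeks at the start. Mice breathed filtered room air (RA, 7 arrays), room air with losartan, which blocks type 1 receptors for angiotensin II, at 0.6 g/L (RA_Los, 3 arrays), cigarette smoke (CS, 7 arrays) or smoke with losartan at 0.6 g/L by mouth (CS_Los, 3 arrays). Exposure took 2 h daily, 5 days in each week, at a mean of 350 ppm carbon monoxide, for 6 to 7 weeks per the protocols and for 2 months per the design text. Batch 1 held 3 arrays of each group, batch 2 held 4 RA and 4 CS arrays, and losartan was given in batch 1 alone. Arrays are named here by the replicate number in the labels' descriptions, which runs from 4 to 7 in batch 2. The titles number those arrays from 1 to 4 and the CS_Los arrays, here 1 to 3, from 7 to 9. The labels do not say what a batch shares. The growth protocol names 3 groups, without RA_Los. Samples carry replicate numbers in the labels, which do not state that each is a separate animal, so the p-values reflect the scatter among samples, part of which may be technical. The protocols do not mention trimming of heart, fat or thymus from the excised lung.

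Arrays of batch 1 had median probe signals of 57.2 to 72.3 and 13946 to 15155 detected probes, and those of batch 2 had 87.4 to 100.4 and 15089 to 15784. Of 11 lung epithelium and endothelium genes with a probe, 10 were detected on all 20 arrays (a detection p, the chance of such a signal among negative-control beads, under 0.05). The exception, Hopx, was detected on none. The values below are background-corrected, quantile-normalized log2 signals, and no probe's level is set against another's.

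Adipoq had the widest spread of the 7 probes. In batch 1 its log2 signal was 6.24, 7.74 and 4.71 on RA 1, 2 and 3, and 8.62, 9.78 and 4.60 on RA_Los 1, 2 and 3. It was 7.94, 4.76 and 7.26 on CS 1, 2 and 3, and 7.33, 7.79 and 9.26 on CS_Los 1, 2 and 3. In batch 2 it was 8.38, 4.50, 5.40 and 5.23 on RA 4 to 7 and 4.85, 7.70, 4.86 and 9.28 on CS 4 to 7. High and low arrays thus occurred together in most groups, and the ranges of the groups overlapped. On the scale of the deposited intensities the probe ran from 52.2 to 1006.2 over the 20 arrays, and within RA_Los alone from 52.2, where it was not detected, to 843.6. It was detected on 16 of 20 arrays, and the arrays where it was not were RA 3, RA 5, RA_Los 3 and CS 2.

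The group means of Adipoq in batch 1 were, from low to high, 6.23 ± 1.51 in RA, 6.65 ± 1.67 in CS, 7.67 ± 2.72 in RA_Los and 8.13 ± 1.00 in CS_Los (SD, n = 3 each). Each neighbouring pair in that order differed by less than the SD of either group. In batch 2 the means were 5.88 ± 1.71 in RA and 6.67 ± 2.20 in CS (SD, n = 4 each). The SD of Adipoq around the means of group and batch was 1.89, against a median of 0.224 over all tested probes, and it ranked 18 from the top among 17012 probes.

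Plin4 followed the same arrays. In batch 1 its log2 signal was 7.14, 7.76 and 6.93 on RA 1 to 3, 8.99, 8.66 and 6.67 on RA_Los 1 to 3, 8.11, 6.93 and 7.11 on CS 1 to 3 and 7.20, 8.12 and 8.88 on CS_Los 1 to 3. In batch 2 it was 7.51, 5.57, 6.76 and 5.38 on RA 4 to 7 and 5.50, 7.20, 5.73 and 8.42 on CS 4 to 7. RA 4 and CS 7 were the highest of their groups in batch 2 for Plin4 as for Adipoq, and RA_Los 3 was the lowest of its group for both. Plin4 was detected on all 20 arrays, its SD around the means of group and batch was 1.02, and it ranked 77 from the top.

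The other members varied less around those means, with SDs of 0.321 for Cidec, 0.184 for Pnpla2 and 0.136 for Lipe (probe 380767). All 3 were detected on all 20 arrays. Plin1 was detected on none of the 20 arrays (lowest detection p 0.0623, on RA_Los 2), also where Adipoq was at its highest, so no level of it is given. The second Lipe probe (3290324) was detected on all 8 arrays of batch 2 and on 1 of 12 of batch 1, RA_Los 2. Results for Lipe are from probe 380767 unless stated.

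**Figure D1:**
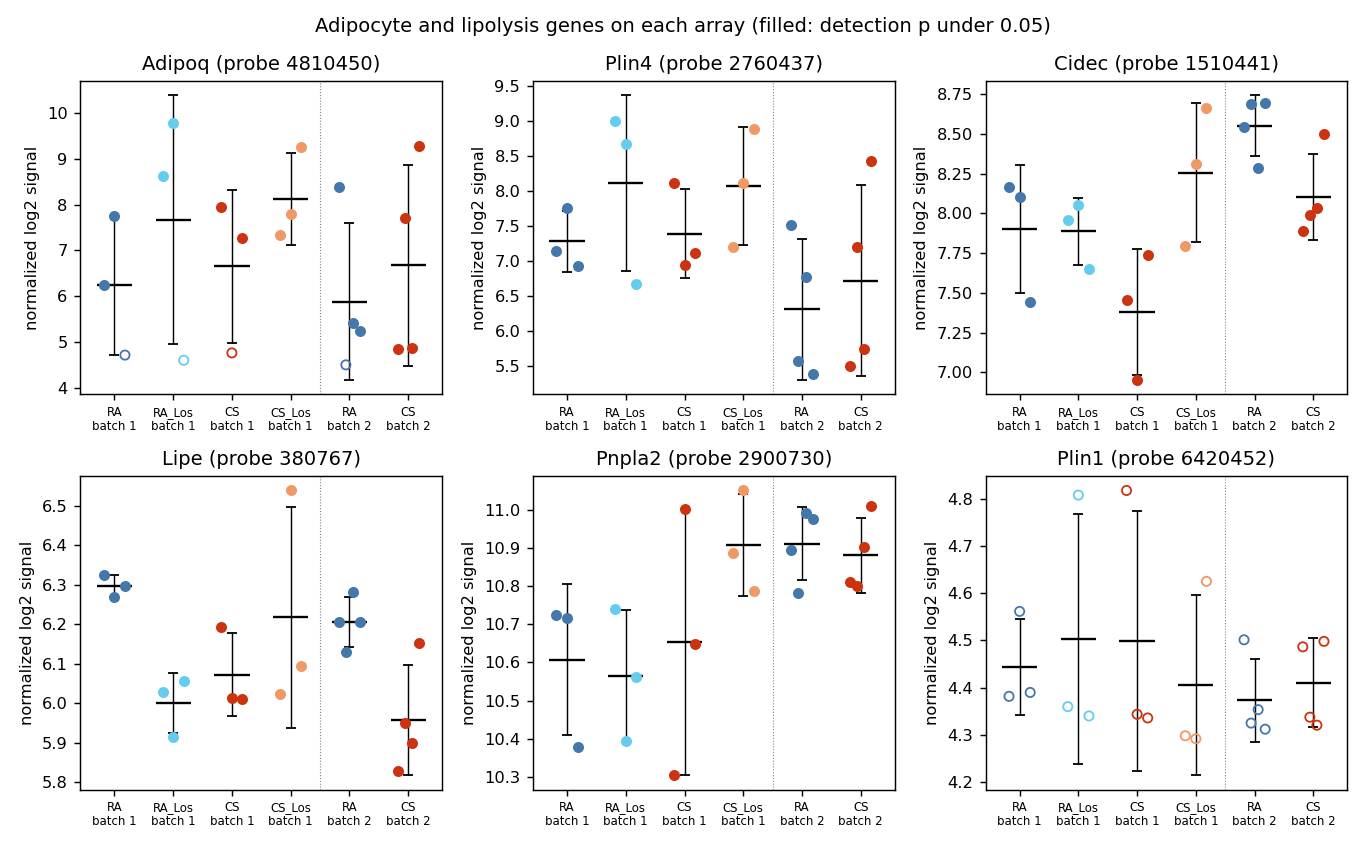
Normalized log2 signal of 6 probes on each of the 20 arrays, by group and batch. Points are arrays (open where the probe was not detected), the thick bar is the mean and the error bar the SD. Within group and batch Adipoq spreads over 1.92 to 5.18 log2 units and Plin4 over 0.83 to 2.92. Lipe and Pnpla2 stay within 1 unit, and Plin1 is not detected on any array.

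To ask whether members deviated together, each array was expressed as its difference from the mean of its group and batch. Over the 20 arrays Adipoq and Plin4 correlated with Pearson's r = 0.901 (Spearman's rho = 0.902, permutation p = 2e-05 for each, adjusted p = 0.0002 over 10 pairs of members). The value was 0.86 without the 2 arrays farthest from the median, RA_Los 3 and CS 7. Within batches it was 0.874 and 0.941. Adipoq and Cidec correlated less closely (r = 0.627, rho = 0.647, permutation p = 0.00457 and 0.00559, adjusted p = 0.0229 and 0.028), with r = 0.554 without the same 2 arrays, 0.747 in batch 1 and 0.45 in batch 2. The other 8 pairs did not pass (adjusted p = 0.108 or more for r). Among these, Adipoq and Pnpla2 gave r = -0.112 and Adipoq and Lipe r = 0.188. Lipe and Adipoq gave -0.103 in batch 1 and 0.716 in batch 2. All members were read on the same arrays, so these values share the normalization of each array.

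Of 11002 other named genes, those with deviations most like Adipoq were Car3, a carbonic anhydrase of fat and muscle (r = 0.985, rho = 0.985, 20 arrays), the sulfotransferase gene Sult1d1 (r = 0.919), Cox8b, a cytochrome oxidase subunit of heart and brown fat (r = 0.914), the antimicrobial lectin gene Reg3g (r = 0.912) and the cytochrome P450 gene Cyp2e1 (r = 0.907). Plin4 itself ranked 7. The genes most like Plin4 were Aoc3, an amine oxidase of fat cells and vascular smooth muscle (r = 0.944), Myh6, the cardiac alpha myosin heavy chain (r = 0.943), Sult1d1 (r = 0.943), the sarcomere gene Tcap (r = 0.942) and Car3 (r = 0.938). Pnpla2 had other neighbours, namely the mitotic kinase gene Pbk (r = 0.857), Btbd11 (r = 0.853), the RNA-binding protein gene Msi2 (r = 0.834), the mitochondrial dehydrogenase gene Hsd17b10 (r = 0.819) and the spindle gene Tpx2 (r = 0.815). These are the highest of many values and describe these arrays.

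Markers of other tissues moved with Adipoq and Plin4. The mean of 11 white adipocyte genes correlated with Adipoq with r = 0.977 (rho = 0.971, permutation p = 1e-05 for each, the smallest that 100000 permutations give, adjusted p = 0.0008 over 80 relations of members and lists). The list holds Car3, named above, which ran from 4.32 to 9.33 over the 20 arrays. Pparg of the same list was 7.05, 7.52 and 7.77 on RA_Los 1 to 3, where Adipoq was 8.62, 9.78 and 4.60. A mean follows its most variable genes most, so r = 0.977 does not show that all 11 genes moved together. The mean of 5 brown adipocyte genes, Cox8b among them, gave r = 0.923 with Adipoq (rho = 0.919, permutation p = 0.00012 and 0.00016, adjusted p = 0.00137 and 0.00206). With Plin4 it gave r = 0.932 (rho = 0.95, permutation p = 4e-05 for each, adjusted p = 0.0008). Of the 11 brown adipocyte genes with a probe, Elovl3, Prdm16, Zic1 and Cpn2 were detected on no array and Ucp1 on 1. None of these was in the mean, which holds Cidea, Cox7a1, Cox8b, Kcnk3 and Ppargc1a. The mean of 12 cardiac muscle genes gave r = 0.876 with Adipoq (rho = 0.853, permutation p = 0.00012 and 0.00018, adjusted p = 0.00137 and 0.00206), with 0.824 without RA_Los 3 and CS 7 and 0.855 and 0.902 within batches 1 and 2. For Plin4 and the cardiac genes r was 0.92 (rho = 0.932, permutation p = 4e-05 for each, adjusted p = 0.0008), 0.911 without those 2 arrays and 0.958 and 0.907 within batches. Skeletal muscle genes gave r = 0.79 with Adipoq (rho = 0.782, permutation p = 0.00173 and 0.00147, adjusted p = 0.0173 and 0.0147), 0.726 without those 2 arrays and 0.762 and 0.918 within batches. The lung list gave r = -0.605 with Adipoq and did not pass (adjusted p = 0.171), and Pnpla2 and Lipe passed with none of the 16 lists.

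The cardiac list mean ranged from 7.72 to 9.84 in RA, 6.23 to 10.99 in RA_Los, 8.28 to 9.90 in CS and 8.42 to 10.16 in CS_Los of batch 1, and from 6.32 to 9.24 in RA and 6.24 to 10.04 in CS of batch 2. Of its 13 genes with a probe 12 were tested, and Ryr2 was detected on no array. The white adipocyte list mean ranged from 6.29 to 6.87 in RA, 6.35 to 7.30 in RA_Los, 6.38 to 6.78 in CS and 6.76 to 7.21 in CS_Los of batch 1, and from 6.45 to 7.05 in RA and 6.40 to 7.29 in CS of batch 2. Of its 15 genes with a probe, Retn (resistin), Aqp7 (the glycerol channel of fat cells) and Lgals12 were detected on no array. Fabp4, a fatty acid carrier of fat cells that is also listed here as a marker of lipid-laden macrophages, was detected on CS_Los 3 alone (signal 53.2). Its signal was 56.7 on CS 7, where it was not detected, so the probe was near background throughout. Ucp1, the uncoupling protein of brown fat, was detected on RA_Los 2 alone. Lep, the leptin gene, was detected on 19 of 20 arrays and Car3 on 13. In such bulk samples, more cells of a type and more RNA per cell cannot be told apart.

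**Figure D2:**
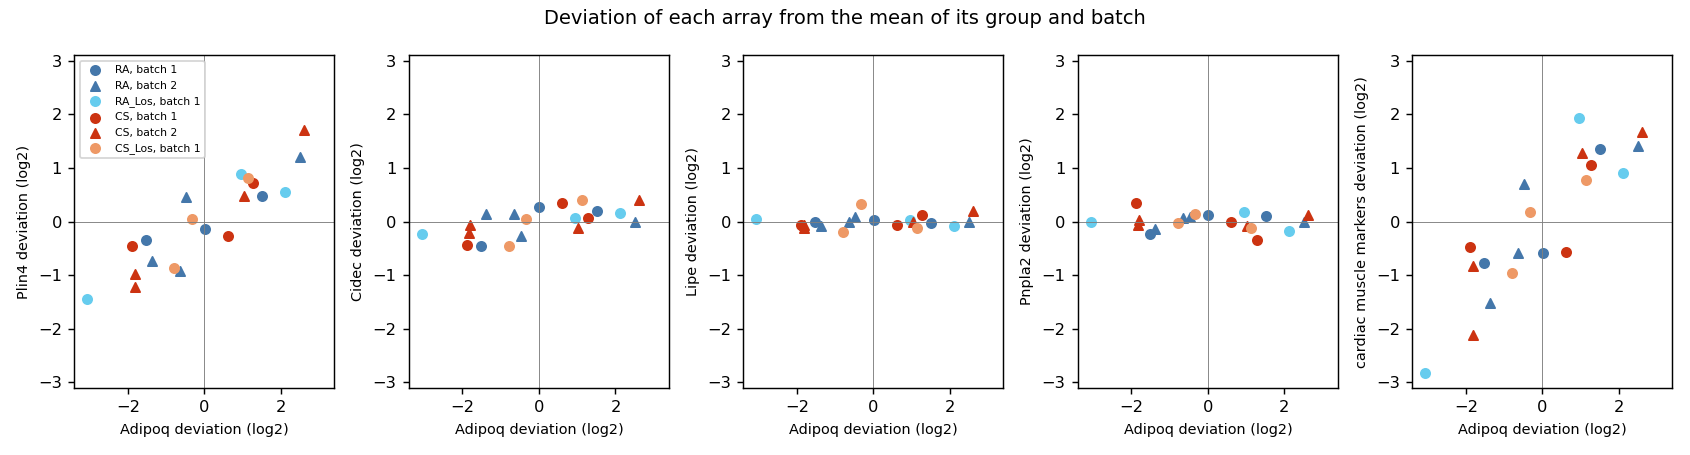
Deviation of each array from the mean of its group and batch, in log2 units, for Adipoq (horizontal) against Plin4, Cidec, Lipe, Pnpla2 and the mean of 12 cardiac muscle genes (vertical). Circles are batch 1 and triangles batch 2, coloured by group. Plin4 and the cardiac genes rise with Adipoq (r = 0.901 and 0.876), while Lipe and Pnpla2 stay near 0.

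The starts of the genes that varied together or passed a test below are shown as the 250 bases before the annotated start, from RefSeq, build GRCm38.p6, which is the C57BL/6J genome and not AKR/J. All 7 genes had a promoter entry, and Cidec and Lipe had 2 each. Capitals mark motifs found on either strand: the C/EBP pattern TTNCNNAA, CCAAT, the E-box CACGTG, the TATA pattern TATAAA, the nuclear receptor pattern AGGTCA, its PPAR repeat AGGTCANAGGTCA (which overlaps the former) and the glucocorticoid pattern ACANNNTGT.
Adipoq, chr16:23146286-23146535, plus strand: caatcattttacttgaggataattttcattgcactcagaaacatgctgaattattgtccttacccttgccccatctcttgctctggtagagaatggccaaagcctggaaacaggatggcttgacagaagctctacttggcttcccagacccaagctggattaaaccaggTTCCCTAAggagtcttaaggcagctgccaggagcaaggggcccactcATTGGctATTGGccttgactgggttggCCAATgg
Plin4, chr17:56109783-56110032, minus strand: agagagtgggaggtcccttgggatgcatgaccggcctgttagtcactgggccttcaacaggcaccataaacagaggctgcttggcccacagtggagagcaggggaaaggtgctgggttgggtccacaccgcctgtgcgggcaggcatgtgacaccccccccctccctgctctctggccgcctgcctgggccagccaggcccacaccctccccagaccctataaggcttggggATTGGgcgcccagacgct
Cidec, inner start, chr6:113434765-113435014, minus strand: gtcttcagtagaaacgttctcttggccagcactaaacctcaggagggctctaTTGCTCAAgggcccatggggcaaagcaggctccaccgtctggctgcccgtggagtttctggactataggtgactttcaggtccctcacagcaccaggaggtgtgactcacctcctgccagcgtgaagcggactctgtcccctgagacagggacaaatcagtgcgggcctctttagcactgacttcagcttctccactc
Lipe, outer start, chr7:25395988-25396237, minus strand: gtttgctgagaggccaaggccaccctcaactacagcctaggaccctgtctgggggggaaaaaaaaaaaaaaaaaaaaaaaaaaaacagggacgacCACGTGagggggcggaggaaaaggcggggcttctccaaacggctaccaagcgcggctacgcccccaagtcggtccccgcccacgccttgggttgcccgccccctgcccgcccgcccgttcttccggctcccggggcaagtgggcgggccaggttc

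In the Adipoq window lay 1 C/EBP match and 3 CCAAT matches, and in that of Plin4 1 CCAAT match. Both Cidec windows held C/EBP matches, while the outer Lipe window held the E-box and the inner one a match to the glucocorticoid pattern. Of 32851 promoters, 36.8% held the C/EBP pattern, 33.8% CCAAT, 6.02% the E-box and 5.84% the glucocorticoid pattern. AGGTCA (14% of promoters), its repeat (0.0335%) and TATAAA (12.4%) had no match in any member's window. The matches describe letters only.

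The effect of smoke was tested on 14 arrays, 7 RA and 7 CS, with a term for batch. Cidec and Lipe fell, and the other members did not pass. In batch 1 Cidec was 8.17, 8.10 and 7.44 on RA 1 to 3 and 7.45, 6.95 and 7.73 on CS 1 to 3. In batch 2 it was 8.54, 8.69, 8.28 and 8.69 on RA 4 to 7 and 7.89, 7.99, 8.04 and 8.50 on CS 4 to 7. The groups overlapped in each batch, through RA 3 in batch 1 and CS 7 in batch 2. Cidec was 1.40-fold lower in CS (log2 change -0.48 ± 0.14, SE, n = 7 per group; 95% interval -0.78 to -0.18; limma adjusted p = 0.0374).

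Lipe was 6.32, 6.27 and 6.30 on RA 1 to 3 and 6.19, 6.01 and 6.01 on CS 1 to 3. In batch 2 it was 6.21, 6.13, 6.28 and 6.20 on RA 4 to 7 and 5.83, 5.95, 5.90 and 6.15 on CS 4 to 7. The groups did not overlap in batch 1, and in batch 2 CS 7 lay above RA 5. How many of all probes separate in this way between 2 groups of 3 arrays was not counted, here or for the losartan groups below. Lipe was 1.18-fold lower in CS (-0.24 ± 0.069, SE, n = 7 per group; 95% interval -0.38 to -0.092; limma adjusted p = 0.0351). Of the RA and CS arrays its second probe was detected on those of batch 2 alone, where it stood at 0.0047 ± 0.12 (limma adjusted p = 0.99). The difference between the 2 probes was not tested.

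Of 6 tested member probes 2 were called, both lower, where 11.1% of all 17012 probes were called in either direction and 5.85% lower. At an unadjusted p under 0.05 the same 2 member probes passed, beside 25.1% of all probes. Both calls were close to the threshold. Cidec no longer passed when any of RA 1, 2, 4, 5, 7 and CS 2, 4, 5, 6 was left out, its adjusted p reaching 0.0818. Lipe no longer passed when any of RA 1, 3, 4, 6 and CS 2, 3, 4, 5, 6 was left out, its adjusted p reaching 0.0764. Cidec also missed the threshold without the detection filter (adjusted p = 0.0678) and over all 20 arrays (adjusted p = 0.0751). Lipe missed it without background correction (adjusted p = 0.0575), with median centring (adjusted p = 0.0551) or 75th percentile centring (adjusted p = 0.107), on the authors' log2 values (adjusted p = 0.123), with trended robust eBayes (adjusted p = 0.0992) and over all 20 arrays (adjusted p = 0.111). Within batches 1 and 2 Cidec stood at -0.52 (adjusted p = 0.44) and -0.45 (adjusted p = 0.102), and Lipe at -0.22 (adjusted p = 0.522) and -0.25 (adjusted p = 0.171).

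Adipoq stood at 0.63 ± 0.76 (95% interval -0.98 to 2.25; adjusted p = 0.664) and Plin4 at 0.28 ± 0.42 (-0.60 to 1.16; adjusted p = 0.732), and with 1 array left out they ranged from 0.16 to 1.06 and from -0.034 to 0.49, each lowest without CS 7. Their intervals reach more than 1 log2 unit upward, so rises of that size are not excluded by these arrays. Pnpla2 was 10.73, 10.72 and 10.38 on RA 1 to 3 and 10.31, 11.003 and 10.65 on CS 1 to 3. In batch 2 it was 10.89, 10.78, 10.99 and 10.98 on RA 4 to 7 and 10.81, 10.80, 10.90 and 11.01 on CS 4 to 7. The groups overlapped in both batches, and the change was 0.0025 ± 0.099 (95% interval -0.21 to 0.21; adjusted p = 0.991).

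With the log2 signal of Adipoq as a covariate, a fit chosen after seeing the data, Cidec stood at -0.55 ± 0.12 (adjusted p = 0.0106) and Lipe at -0.26 ± 0.069 (adjusted p = 0.0251), and Plin4 at -0.028 ± 0.20. The circadian clock and glucocorticoid-induced genes also differed between CS and RA. Of 13 measured glucocorticoid-induced genes 11 fell and 0 rose, led by Cdkn1a (-1.67), Tsc22d3 (-1.61), Angptl4 (-1.60) and Per1 (-1.50), and the list mean was 10.33 to 10.83 on the RA arrays and 9.35 to 9.82 on the CS arrays. Of 14 clock genes 3 rose and 4 fell, led by Dbp (2.60), Nr1d1 (2.17), Per2 (-1.60) and Per1 (-1.50). When the leading 2 principal components of the clock genes were added as covariates, using all 20 arrays, Cidec stood at -0.17 (adjusted p = 0.899) and Lipe at 0.081 (adjusted p = 0.907), and 1 probe of 17012 was called in all. Without those covariates the same 20 arrays gave -0.48 for Cidec and -0.24 for Lipe, neither past the threshold (adjusted p = 0.0751 and 0.111), with 843 probes called. The first component was higher on every CS array (-0.84 or more) than on every RA array (-1.28 or less). Among the arrays without losartan, clock state and smoke therefore cannot be told apart. The losartan arrays in the fit broke this order, with 3.89 and 4.20 on RA_Los 2 and 3 and -1.35 and -2.26 on CS_Los 1 and 2. RA_Los 1 (-1.28) and CS_Los 3 (4.19) did not. How much the clock terms of the fit rest on the losartan arrays was not tested. Of 5 erythroid genes 4 fell and 0 rose (median -1.70), namely Hbb-bt (-1.98) and Hbb-b2 (-1.87), which are near-identical copies, Alas2 (-1.69) and Slc4a1 (-0.89). Of 5 thymocyte genes 1 rose, Cd8b1 (0.78 ± 0.17, limma adjusted p = 0.00727), and 0 fell (median 0.12). Rag1 stood at -0.21, Ptcra at -0.038, Satb1 at 0.12 and Cd1d1 at 0.16. Of the 11 thymocyte genes with a probe 6 were detected on no array. Skeletal muscle (0 of 5), mesothelial (0 of 10) and lung genes (0 of 10) gave no calls by limma, with medians of 0.12, -0.071 and 0.0091. Ckm stood at 0.12, Acta1 at -0.36, Msln at -0.12, Upk3b at -0.21 and Sftpc at 0.023. The part of glucocorticoid-induced, erythroid and thymocyte genes in the result was not tested.

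**Figure D3:**
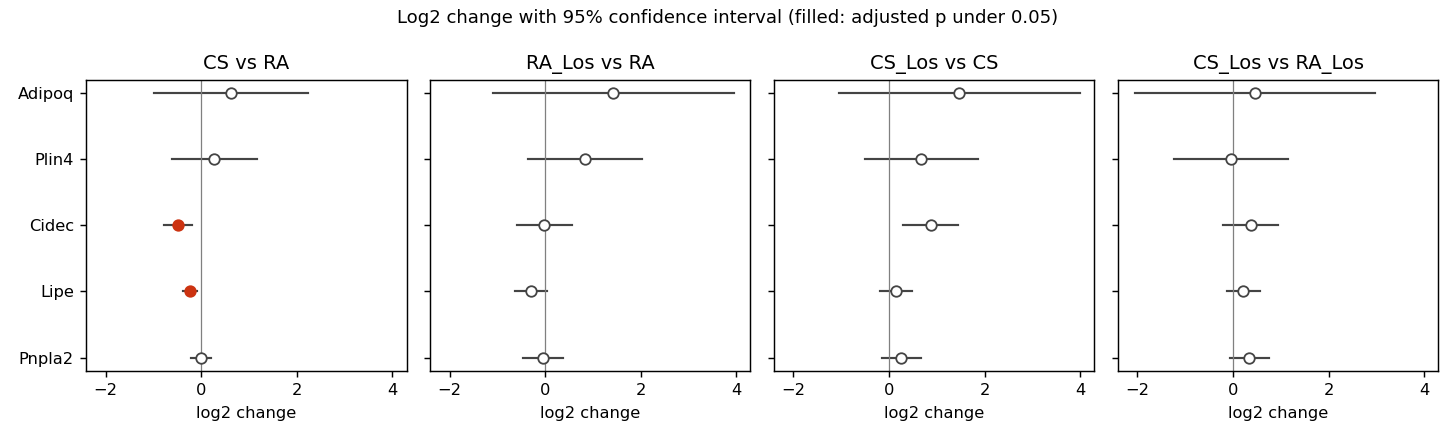
Log2 change (horizontal) of 5 member probes with its 95% confidence interval in the 4 comparisons. Filled points passed an adjusted p under 0.05. Cidec (-0.48) and Lipe (-0.24) in CS against RA are the filled points, and Adipoq has the widest intervals throughout.

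Of all probes 5.23% were called higher and 5.85% lower, beside which the counts of the lists stand. Genes that regulate lipolysis gave 1 call of 11, higher, with a median log2 change of 0.042, beside -0.0014 over all probes. It was Hcar2, the receptor through which niacin and ketone bodies restrain lipolysis in fat cells and which macrophages and neutrophils also carry (0.59 ± 0.12; adjusted p = 0.00508). Its call was lost without a batch term, within either batch and with the clock components (adjusted p up to 0.502). The co-activator of Pnpla2, Abhd5 (-0.11), its inhibitor G0s2 (-0.064) and the monoglyceride lipase gene Mgll (0.073) did not pass. Lipid droplet proteins gave 0 calls of 15 by limma, with a median of -0.0019, and Plin2, the perilipin of most cells other than fat cells, stood at -0.29 (adjusted p = 0.21).

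White adipocyte genes gave 0 calls of 11 (median 0.012), with Car3 at 0.56 ± 0.79 and Lep at 0.070. Brown adipocyte genes gave 0 of 5 (median 0.31), with Cox8b at 0.48 and Cidea at 0.31. Cardiac muscle genes stood above 0 in 12 of 12, with a median of 0.40. The 12 were read on the same arrays and are not independent results. Myh6 stood at 0.40 ± 0.66 and Myl7 at 0.61 ± 0.75 (SE). Of the 12, 1 was called, the stretch-responsive gene Ankrd1 (0.44 ± 0.085, limma adjusted p = 0.00301). The part of muscle or fat tissue in these values was not tested. The fit with Adipoq above held no muscle gene, and it cannot tell more fat cells from more Adipoq RNA per cell.

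Lipid genes that respond to fasting showed calls in 1 direction. Of 12 measured targets of the fatty acid sensors PPAR 3 fell and 0 rose, with a median of -0.012. They were Angptl4, a secreted inhibitor of lipoprotein lipase (-1.60 ± 0.19; adjusted p = 6.59e-05), Pdk4, a kinase that spares glucose (-1.14 ± 0.24; adjusted p = 0.00568), and the acyl-CoA thioesterase gene Acot1 (-0.56 ± 0.13; adjusted p = 0.00802). Angptl4 and Pdk4 were also on the list of glucocorticoid-induced genes. Of 17 fatty acid and triglyceride synthesis genes 1 fell, Lpin1, a phosphatidate phosphatase (-0.60 ± 0.15; adjusted p = 0.0154), and 0 rose, with a median of -0.022. The lipogenic genes Fasn (-0.12) and Scd1 (0.35) did not pass. These 4 calls held when any 1 array was left out. All 4 were lost within batch 1 alone, where 75 probes were called in all, Acot1 and Lpin1 also without a batch term, and Acot1 over all 20 arrays. With the clock components as covariates Angptl4 (0.11), Pdk4 (0.92) and Acot1 (0.40) had the other sign, none past the threshold, and Lpin1 stood at -0.62 (adjusted p = 0.456).

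Other lipid-handling cells gave values as well. Of 13 markers of lipid-laden macrophages 2 rose, the lipid receptor gene Trem2 (0.54 ± 0.098; adjusted p = 0.00185) and Gpnmb (0.47 ± 0.10; adjusted p = 0.00665), and 1 fell, the cholesterol exporter gene Abca1 (-0.68 ± 0.17; adjusted p = 0.0147). The median was -0.056. In the complement pathway in which adipsin acts, Cfb, the substrate of adipsin, rose by 0.52 ± 0.15 (adjusted p = 0.0372), the decay factor gene Cd55 rose by 0.42 ± 0.11 (adjusted p = 0.0209) and Hc, which encodes C5, fell by 0.62 (adjusted p = 0.00306), out of 5 measured (median 0.11). Cfb no longer passed when any of RA 1, 2, 3, 6 and CS 2, 3, 4, 6, 7 was left out, its adjusted p reaching 0.0827. It was also lost in 11 of 19 other settings, median centring, the authors' log2 values and all 20 arrays among them (adjusted p up to 0.622). Cd55 was lost in 4 of 19 (adjusted p up to 0.436), Gpnmb and Hc in 4 of 19 each, Abca1 in 5 and Trem2 and Ankrd1 in 3 each, within batch 1 in every case. With the clock components as covariates Trem2 (-0.25), Gpnmb (-0.046), Abca1 (0.051), Hc (0.13) and the cardiac gene Ankrd1 (-0.068) had the other sign, none past the threshold.

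**Figure D4:**
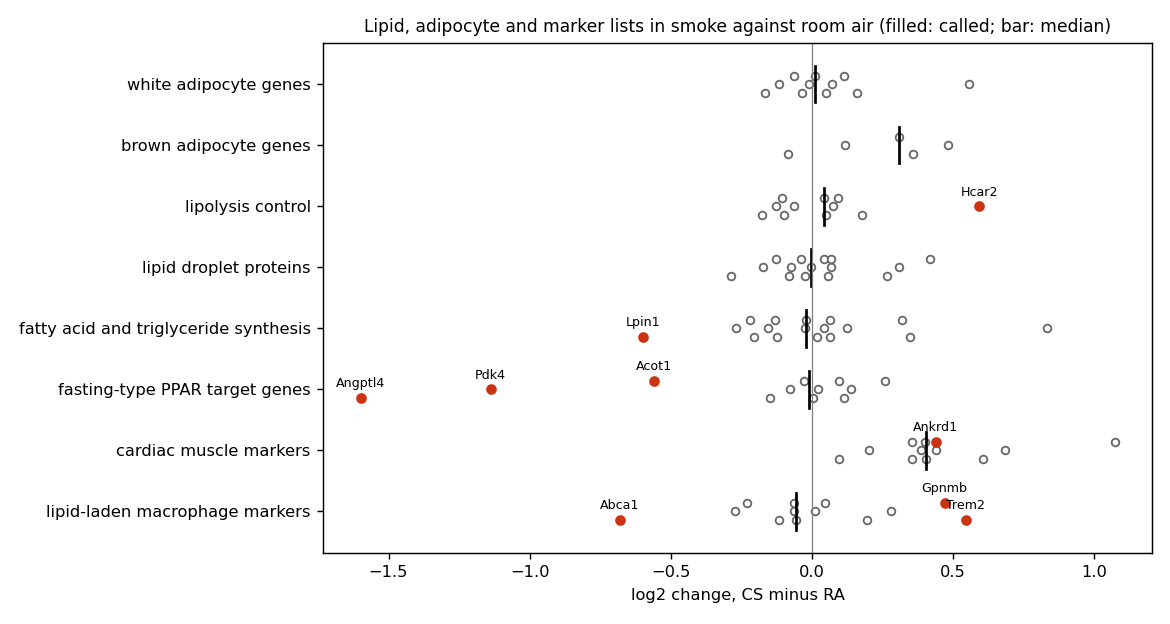
Log2 change in CS against RA (horizontal) of each measured gene of 8 lists. Filled points with names passed an adjusted p under 0.05 and the bar is the list's median. Angptl4, Pdk4, Acot1, Lpin1 and Abca1 lie to the left, and Hcar2, Ankrd1, Gpnmb and Trem2 to the right.

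Losartan was compared within batch 1, with the 12 arrays sharing 1 estimate of the spread. Clock state was uneven among these arrays. The first clock component was -1.28, 3.89 and 4.20 on RA_Los 1 to 3 and -1.35, -2.26 and 4.19 on CS_Los 1 to 3. It was -2.96, -2.26 and -1.69 on RA 1 to 3 and 4.04, 1.03 and 0.61 on CS 1 to 3. Dbp stood at 2.76 in RA_Los against RA and -1.45 in CS_Los against CS, neither past the threshold. The part of clock state in the values with losartan was not tested. In room air no member probe passed by limma (0 of 6, and 0 at an unadjusted p under 0.05), while 0.00588% of all probes did (4.96% unadjusted). Adipoq stood at 1.43 ± 1.17 (SE, n = 3 per group; 95% interval -1.09 to 3.95; limma adjusted p = 0.96) and Plin4 at 0.83 ± 0.55 (-0.36 to 2.02; limma adjusted p = 0.96). With 1 array left out Adipoq ranged from 0.38 (without RA_Los 2) to 2.96 (without RA_Los 3), and Plin4 from 0.39 (without RA_Los 1) to 1.55 (without RA_Los 3). RA_Los 1 and 2 lay above all 3 RA arrays for both genes, and RA_Los 3 lay below them. RA_Los 3 also had the lowest cardiac list mean of the 20 arrays, 6.23. Lipe was 6.03, 5.91 and 6.06 on RA_Los 1 to 3, below all 3 RA arrays, with a change of -0.30 ± 0.16 that did not pass (limma adjusted p = 0.96). Cidec was 7.96, 8.05 and 7.65 on RA_Los 1 to 3, within the range of RA, and stood at -0.016 ± 0.27. Pnpla2 was 10.74, 10.39 and 10.56 on the same arrays and stood at -0.042 ± 0.19.

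In smoke-exposed lungs no member probe passed with losartan by limma (0 of 6, and 2 at an unadjusted p under 0.05). Of all probes 0% were called and 5.87% had an unadjusted p under 0.05. Cidec was 7.79, 8.31 and 8.66 on CS_Los 1 to 3. All 3 lay above all 3 CS arrays of batch 1, and the change was 0.88 ± 0.27 (SE, n = 3 per group; 95% interval 0.30 to 1.45; unadjusted p = 0.00582, limma adjusted p = 0.603). With Adipoq as a covariate it stood at 0.65 ± 0.22 (limma adjusted p = 0.985). The other probe with an unadjusted p under 0.05 was the second Lipe probe, detected on 0 arrays of both groups, so no size is given.

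On the same arrays Adipoq stood at 1.47 ± 1.17 (-1.05 to 3.99; limma adjusted p = 0.922) and Plin4 at 0.68 ± 0.55 (-0.51 to 1.87; limma adjusted p = 0.925). With 1 array left out Adipoq ranged from 0.53 (without CS 2) to 2.11 (without CS 1), and Plin4 from 0.27 (without CS_Los 3) to 1.11 (without CS_Los 1). Cardiac muscle genes had a median of 0.49 with 0 of 12 called, and their part in these values was not tested. Pnpla2 was 10.89, 11.05 and 10.79 on CS_Los 1 to 3. CS_Los 2 lay above the 3 CS arrays of batch 1 and the other CS_Los arrays within their range, and Pnpla2 stood at 0.26 ± 0.19 (0.082 to 0.43 with 1 array left out). Lipe was 6.02, 6.54 and 6.09, with CS_Los 2 the highest of the 20 arrays, and stood at 0.15 ± 0.16.

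Smoke with losartan was also set against room air with losartan, which shares the CS_Los and RA_Los arrays with the comparisons above. No member probe passed (0 of 6 by limma, 0 at an unadjusted p under 0.05, and 0% of all probes). Cidec stood at 0.37 ± 0.27 and Lipe at 0.22 ± 0.16, against the signs they had without losartan in CS against RA. Pnpla2 stood at 0.34 ± 0.19 (95% interval -0.068 to 0.75; limma adjusted p = 0.90), Adipoq at 0.46 ± 1.17 and Plin4 at -0.043 ± 0.55. Whether the change with losartan differed between smoke and room air was tested by the interaction. It was 0.89 ± 0.38 for Cidec (95% interval 0.078 to 1.71; unadjusted p = 0.0341, limma adjusted p = 0.648) and 0.44 ± 0.22 for Lipe (limma adjusted p = 0.723), and 0 of 6 member probes and 0% of all probes passed.

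The change in smoke did not differ past the threshold between batches for any member (0 of 6, and 0 at an unadjusted p under 0.05, with 0.00588% of all probes called). The interaction was 0.075 ± 0.29 for Cidec (95% interval -0.55 to 0.70; limma adjusted p = 0.999) and -0.024 ± 0.14 for Lipe (-0.33 to 0.28). For Adipoq it was 0.37 ± 1.59 (-3.00 to 3.75), so a difference of several log2 units between batches is not excluded.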

How the data were processed

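RNA from whole lung was labelled and read on Illumina bead arrays, per the labels' protocols. The deposited probe intensities are non-normalized signals and were made with BeadStudio, per the submitters' processing notes (version not given in the sources used here). The detection p-value of each probe stands beside them, per the file headers. The authors' log2 values equal the log2 signal shifted to a median of 8 on each array (largest difference 0.0069) and were used as an alternative.

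Here the intensities were corrected with limma 3.58.1 (R 4.3.3; nec, offset 16, negative controls inferred from the detection p-values) and quantile-normalized over the 20 arrays. Probes detected (p under 0.05) on 3 or more arrays entered the tests (17012 of 25697, or 66.2%), including 6 of the 7 member probes. Probes were named from the platform annotation. CS and RA were compared over 14 arrays with batch as a term, and losartan over the 12 arrays of batch 1, by lmFit and eBayes with Benjamini-Hochberg adjustment over all kept probes and a threshold of 0.05. A listed gene with several tested probes is represented by its brightest on average. Correlations had two-sided p-values from 100000 permutations within group and batch. On simulated data for CS against RA with 17012 probes, 200 of them changed, 159 probes were called. These 159 include 3 false calls.

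The members and lists were chosen with earlier results of these data known. Named genes were all members, the called genes of each list (up to 4), 1 or 2 defining genes of a list with none, and the 5 genes most like Adipoq, Plin4 and Pnpla2. Abhd5, G0s2, Mgll, Fasn and Scd1 were added for their roles after their values were seen. Same-numbered samples deviated with correlations of -0.322 to 0.312. Differently numbered samples were not set beside them, so this cannot settle whether the numbers pair samples. The main fits did not pair them. The number of arrays limits the precision. Alternatives covered the background correction, normalization, filter, array weights, batch, samples in the fit, clock components and leaving out each array.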

Additional observations from a re-analysis of the deposited data

How the results depend on the processing

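Of 6 tested member probes 2 were called in CS against RA, and 1 was called, Cidec, without background correction, with median or 75th percentile centring, on the authors' log2 values and with trended robust eBayes, and 1, Lipe, without the detection filter. The count was 0 with the replicate number as a block (replicate block), without a batch term, within batch 1, within batch 2, over all 20 arrays, with the clock components as covariates and at a minimum of 1.5-fold, and 0 to 2 when 1 array was left out. In the other comparisons it was 0 under every setting run. Over all probes 1885 were called, against 484 without a batch term, 75 within batch 1, 872 within batch 2, 843 over all 20 arrays, 1 with the clock components and 435 at 1.5-fold. The replicate block ended the calls of Cidec (adjusted p = 0.0656) and Lipe (0.0669). In CS against RA the sign turned for the second Lipe probe with median centring (-0.024), the authors' values (-0.0071) and array weights (-0.0022), and for Pnpla2 with median centring (-0.10), 75th percentile centring (-0.066), the authors' values (-0.05) and within batch 2 (-0.030). With Adipoq as a covariate it turned for Plin4 (-0.028). With the clock components it turned for Lipe (0.081), Abca1 (0.051), Acot1 (0.40), Angptl4 (0.11), Ankrd1 (-0.068), Cd8b1 of the thymocyte list (-0.49), Gpnmb (-0.046), Hc (0.13), Pdk4 (0.92) and Trem2 (-0.25). In RA_Los against RA it turned for Cidec with median centring (0.012), the authors' values (0.03) and all 20 arrays (0.0055), and for Pnpla2 with Adipoq as a covariate (0.0085). The interaction of losartan and smoke for Adipoq was -0.14 without background correction, -0.15 with offset 50, -0.087 with median centring, -0.19 with 75th percentile centring, -0.20 on the authors' values and -0.17 over all 20 arrays. The interaction of smoke and batch for Pnpla2 was 0.018 with median centring and 0.058 on the authors' values. The cause was not tested in these cases. Leaving out 1 array moved CS against RA from -0.031 to 0.056 for the second Lipe probe, -0.067 to 0.063 for Pnpla2 and -0.034 to 0.49 for Plin4. It moved RA_Los against RA from -0.25 to 0.12 for Cidec and -0.16 to 0.044 for Pnpla2, CS_Los against CS from -0.014 to 0.24 for Lipe, and CS_Los against RA_Los from -1.07 to 1.52 for Adipoq and -0.76 to 0.40 for Plin4. The losartan and smoke interaction ran from -1.49 to 1.10 for Adipoq and -0.87 to 0.29 for Plin4. The smoke and batch interaction ran from -0.57 to 1.21 for Adipoq, -0.14 to 0.31 for Cidec, -0.089 to 0.036 for Lipe, -0.27 to 0.70 for Plin4 and -0.25 to 0.099 for Pnpla2. Plin1 and the second Lipe probe in batch 1 were not above background, which limits both.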

Other observations

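Among the genes of the lipolysis and lipid droplet lists, 2 gave values with losartan that were chosen here after they were seen. Hcar2, the niacin and ketone body receptor that rose in smoke, stood at 0.99 ± 0.25 in RA_Los against RA (SE, n = 3 per group; unadjusted p = 0.00176, limma adjusted p = 0.96). Plin2, the perilipin of most cells other than fat cells, stood at 0.83 ± 0.24 in CS_Los against CS (unadjusted p = 0.00409, limma adjusted p = 0.603) and at -0.15 ± 0.24 in RA_Los against RA (limma adjusted p = 0.973). Neither passed the adjustment over all probes.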
